A study of Mus musculus with 69 samples.

Results

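The genes described here are 10 mouse transcripts that mark antigen-presenting and phagocytic cells: Cd74, H2-Aa, H2-Ab1, H2-Eb1, C1qa, C1qb, C1qc, Lyz2, Tyrobp and Cd52. They were taken by gene name from the 4 deposited tables, and all 10 were found in each table among 53700 to 55487 listed genes. The tables hold RNA-seq of kidney tubules dissected by hand from wild-type male C57BL/6 mice (Taconic) that were 7 weeks old at surgery. Mice had a sham operation or unilateral nephrectomy (UNx, excision of a kidney), and tubules were collected after 24 h or 72 h. Tubules of 2 kinds were taken: proximal tubule of the first segment, PT-S1, and collecting duct of the cortex, CCD. PT-S1 at 24 h had 3 sham and 4 UNx animals with 8 and 9 libraries, and PT-S1 at 72 h had 5 and 5 animals with 12 and 12 libraries. CCD at 24 h had 4 sham and 3 UNx animals with 8 and 7 libraries, and CCD at 72 h had 4 and 4 animals with 7 and 6 libraries. The animal was the replicate, and its value is the mean over its libraries, which makes 69 libraries from 32 animals as numbered in each table.

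Major histocompatibility complex (MHC) class II molecules display peptides from ingested proteins to helper T cells. H2-Aa and H2-Ab1 encode the alpha and beta chains of the I-A molecule, H2-Eb1 encodes the beta chain of I-E, and Cd74 encodes the invariant chain that guides both through the cell until the peptide is loaded. In kidney these molecules are best known on resident macrophages and dendritic cells that lie between the tubules, and tubule epithelium can also carry them when stimulated. C1qa, C1qb and C1qc encode the 3 chains of complement C1q, made mostly by tissue macrophages. Lyz2 encodes lysozyme of macrophages and neutrophils, Tyrobp encodes the DAP12 adaptor of myeloid and natural killer cell receptors, and Cd52 encodes a small glycoprotein on the surface of lymphocytes and monocytes. In bulk libraries such as these, fewer cells of a type and less RNA per cell cannot be told apart.

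The RefSeq promoter table matched 5 of the 10 genes, and the 4 sequences below are shown because the class II genes varied together across libraries, as did the C1q genes. Each is the 250 bases before the annotated start, 5′ to 3′ in the direction of the gene, on GRCm38.p6. In the class II promoters the capitals mark the Y box letters CTGATTGG and the letters GCAAC found in the X box, the elements through which RFX and NF-Y factors recruit the class II transactivator.
H2-Aa (chr17:34287824-34288073, minus strand): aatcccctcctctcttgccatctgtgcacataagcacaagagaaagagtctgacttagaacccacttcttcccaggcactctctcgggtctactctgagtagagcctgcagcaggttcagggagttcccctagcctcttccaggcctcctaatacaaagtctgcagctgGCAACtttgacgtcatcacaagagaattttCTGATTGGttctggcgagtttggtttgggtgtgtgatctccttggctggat
H2-Eb1 (chr17:34305617-34305866, plus strand): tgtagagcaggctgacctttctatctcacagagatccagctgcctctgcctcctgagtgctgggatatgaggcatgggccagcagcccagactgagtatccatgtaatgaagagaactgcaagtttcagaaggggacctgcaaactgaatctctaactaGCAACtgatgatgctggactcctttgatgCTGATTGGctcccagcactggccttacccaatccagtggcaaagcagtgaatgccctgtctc
In the C1q promoters the capitals mark GAGGAA or its reverse complement TTCCTC, the core recognised by the myeloid factor PU.1.
C1qb (chr4:136886201-136886450, minus strand): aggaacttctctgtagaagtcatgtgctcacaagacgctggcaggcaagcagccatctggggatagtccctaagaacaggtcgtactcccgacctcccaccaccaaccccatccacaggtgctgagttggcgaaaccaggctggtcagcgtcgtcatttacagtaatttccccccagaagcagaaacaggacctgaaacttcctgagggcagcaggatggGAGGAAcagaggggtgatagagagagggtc
C1qc (chr4:136892915-136893164, minus strand): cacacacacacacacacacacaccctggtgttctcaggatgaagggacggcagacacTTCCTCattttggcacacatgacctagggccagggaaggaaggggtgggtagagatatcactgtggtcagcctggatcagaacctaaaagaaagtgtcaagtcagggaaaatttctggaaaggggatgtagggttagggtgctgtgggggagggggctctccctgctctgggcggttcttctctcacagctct

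H2-Aa and H2-Eb1 both carried GCAAC followed by CTGATTGG on the printed strand. GCAAC began 81 bases before the start in H2-Aa and 91 bases before it in H2-Eb1, and CTGATTGG began 51 and 62 bases before it. CTGATTGG on either strand was present in 3.83% of 32851 promoters of this length, and GCAAC in 29.9%. Both on the listed strand were found in 107 of them, or 0.326%. GAGGAA or TTCCTC was present in 23.3% of promoters, and it stood 30 bases before the start in C1qb and 193 bases before it, as TTCCTC, in C1qc. The marked letters did not overlap. Lyz2 was the fifth gene matched, and its promoter, which held none of the searched letters in this window, is not printed. A match describes the sequence and is not a measured binding site.

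The labelled segments were borne out by their own transcripts. Slc34a1, the phosphate transporter of the early proximal tubule, averaged 7876 TPM over PT-S1 animals and 19.0 TPM over CCD animals, and Aqp2, the water channel of principal cells, averaged 22984 TPM in CCD and 0.113 TPM in PT-S1. TPM, the length-corrected share of transcripts in a library, is scaled to a fixed total, so sequencing depth is unknown and no counting interval can be given. Of the 69 libraries, 5 correlated with the others of their table at a median r under 0.92: 2 of PT-S1 sham animals at 24 h, 2 of PT-S1 UNx animals at 72 h and 1 of a CCD sham animal at 72 h. Where a result rests on them its value without them is given.

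Class II transcripts were the most abundant of the 10 in both segments. In CCD, Cd74 averaged 212 ± 67.5 TPM (SD, n = 15 animals), H2-Ab1 107 ± 28.0, H2-Eb1 62.4 ± 15.1 and H2-Aa 52.6 ± 12.5. C1qb followed at 25.2 ± 10.1 TPM, then Tyrobp at 13.4 ± 4.82, C1qc at 12.5 ± 4.55, Cd52 at 12.0 ± 5.11, C1qa at 10.5 ± 4.14 and Lyz2 at 6.87 ± 4.71. Cd74 exceeded H2-Ab1, H2-Ab1 exceeded H2-Eb1, H2-Aa exceeded C1qb and C1qb exceeded Tyrobp in 15 of 15 animals. The order was not fixed among the low genes: C1qc was above Cd52 in 7 of 15 animals and Tyrobp above C1qc in 11 of 15.

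PT-S1 had the same 5 genes at the top with a wider spread. Cd74 averaged 149 ± 78.0 TPM (SD, n = 17 animals), H2-Ab1 92.9 ± 51.2, H2-Aa 35.3 ± 18.9, H2-Eb1 33.2 ± 19.8 and C1qb 14.6 ± 7.82. H2-Aa was above H2-Eb1 in 8 of 17 animals, so their levels did not differ beyond the spread. Cd52 averaged 7.87 ± 9.13 TPM, Tyrobp 7.72 ± 5.42, C1qc 7.70 ± 4.33, C1qa 6.11 ± 3.85 and Lyz2 2.83 ± 1.39. Cd52 was above Tyrobp in 5 of 17 animals although its mean was higher. The 2 segments were deposited in separate tables and were treated as normalized separately, so their levels stand side by side without a test.

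**Figure D1:**
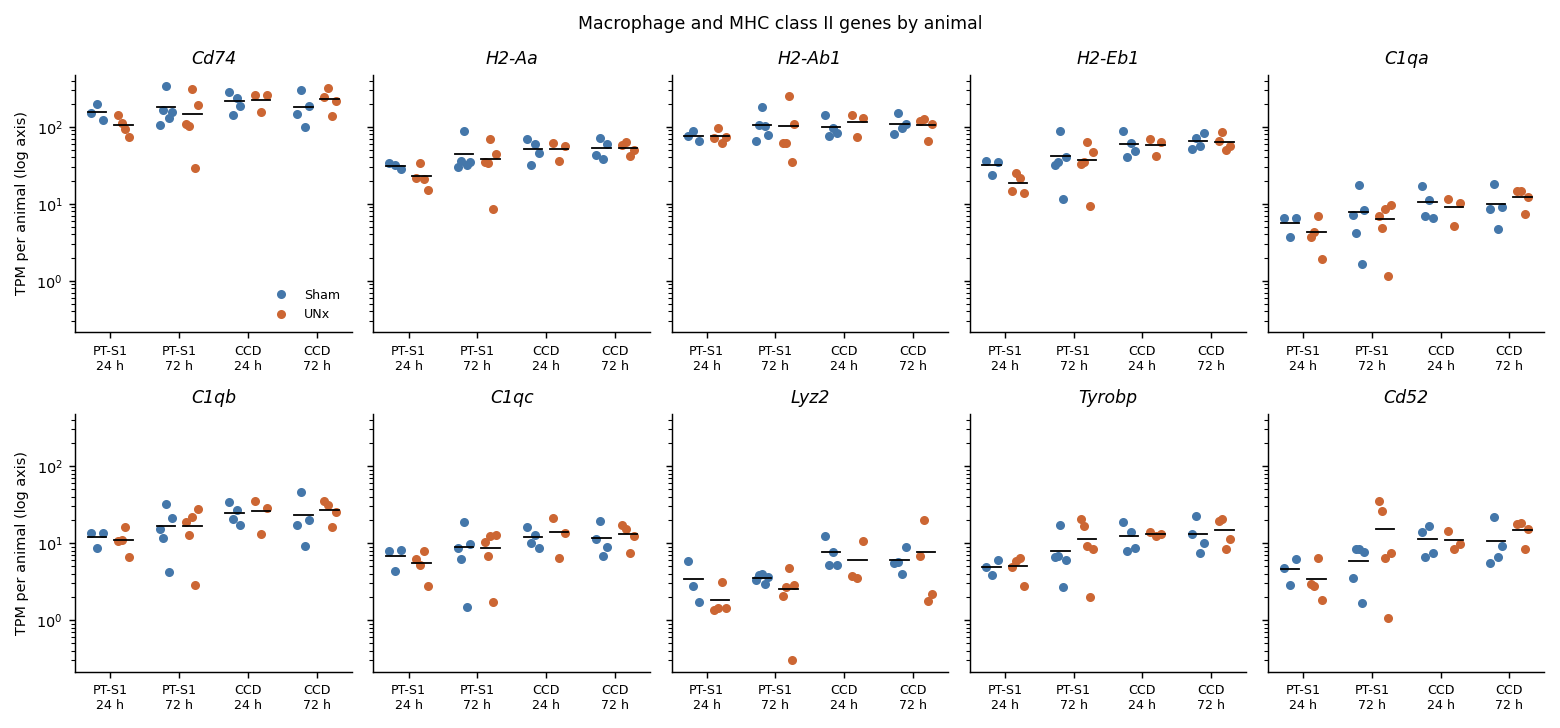
Level of each of the 10 genes in every animal, as TPM on a log axis against segment and time. Blue points are sham animals, orange points UNx animals (each the mean of its libraries), and black bars the group means. On this scale of mean TPM sham and UNx animals overlap for every gene in every segment and time, and PT-S1 at 72 h has the widest spread.

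Nephrectomy was compared with sham in each segment and time by limma on log2(TPM + 1) across all genes with a mean of at least 1 TPM, with Benjamini-Hochberg adjustment. All 10 genes passed that filter in each table, and limma called 0 of 10 at an adjusted p under 0.05 in any of the 4. At an unadjusted p under 0.05 there were 2 of the 10 in PT-S1 at 24 h and 0 in each other table, where 17.8%, 20.5%, 15.5% and 7.49% of all genes passed in PT-S1 at 24 h and 72 h and in CCD at 24 h and 72 h. With adjustment, 0% of 11874 genes were called in PT-S1 at 24 h, 0% of 11886 in PT-S1 at 72 h, 0.987% of 13775 in CCD at 24 h and 0.595% of 13770 in CCD at 72 h. On the mean TPM per animal, sham and UNx animals overlapped for each of the 10 genes in each table. On that scale 21.3% of all genes tested in PT-S1 at 24 h had groups that did not overlap, as did 5.58% in PT-S1 at 72 h, 15% in CCD at 24 h and 4.77% in CCD at 72 h. On the mean of log2(TPM + 1) per animal, which limma was given, the groups of Cd74 and H2-Eb1 did not overlap in PT-S1 at 24 h, and those of the 10 genes overlapped otherwise. Of all genes tested, 14.9%, 5.56%, 15.1% and 4.77% did not overlap on the log2 scale in the 4 tables, in the same order. Adjusted p-values of the 10 genes ranged from 0.254 to 0.970, 0.427 to 0.984, 0.552 to 0.990 and 0.845 to 0.991 in these 4 tables. Differences that miss the threshold do not show that the groups were alike, since the standard errors in PT-S1 at 72 h reached 0.62 log2 units.

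In PT-S1 at 24 h the lowest changes of the 10 genes after UNx were those of 2 class II genes. Cd74 stood at 154, 195 and 124 TPM in the 3 sham animals and at 143, 112, 93.9 and 73.1 TPM in the 4 UNx animals. On mean TPM the groups overlapped only through UNx animal 1, which was above the lowest sham animal. On the log2 means the groups did not overlap, at 6.88 to 7.47 in sham and 5.98 to 6.78 in UNx animals. The change, UNx minus sham on the log2(TPM + 1) scale, was -0.66 with a standard error of 0.22 and an adjusted p of 0.254 (limma). H2-Eb1 stood at 36.0, 24.0 and 34.8 TPM in sham animals and at 14.6, 24.9, 21.7 and 13.7 TPM in UNx animals. On mean TPM UNx animal 2 was just above sham animal 2, whereas the log2 means did not overlap, at 4.64 to 5.12 in sham and 3.83 to 4.47 in UNx animals. The change was -0.70 with a standard error of 0.22 and an adjusted p of 0.254 (limma). Unadjusted p-values were 0.0127 for Cd74 and 0.00875 for H2-Eb1. Without the 2 low-correlation sham libraries of that table the changes were -0.97 for Cd74, with an adjusted p of 0.0799, and -1.03 for H2-Eb1, with an adjusted p of 0.0954. Over all alternatives the adjusted p (limma) ranged from 0.0799 to 0.672 for Cd74 and from 0.0954 to 0.672 for H2-Eb1.

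The partners of these genes had smaller differences in PT-S1 at 24 h. H2-Ab1 stood at 75.05, 89.3 and 65.2 TPM in sham animals and at 70.6, 95.9, 60.9 and 73.6 TPM in UNx animals, a change of -0.20 with a standard error of 0.18. The sham and UNx ranges of H2-Ab1 were nearly the same. H2-Aa had a change of -0.49 with a standard error of 0.23 and an adjusted p of 0.290 (limma). The median change of all genes tested in this table was -0.19, so relative to it Cd74 stood at -0.47, H2-Eb1 at -0.50, H2-Aa at -0.29 and H2-Ab1 at -0.0046. C1qb, with 13.5, 8.64 and 13.5 TPM in sham and 10.6, 11.1, 16.0 and 6.70 TPM in UNx animals, had a change of -0.064 with a standard error of 0.29. C1qa, C1qc, Lyz2, Tyrobp and Cd52 lay between -0.45 and 0.023. With median-ratio scaling of the libraries, H2-Ab1 and C1qb had changes above 0, at 0.035 and 0.14. Over the 10 genes the median change was -0.27, beside -0.19 over all genes tested.

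In PT-S1 at 72 h the animals of a group were far apart. Cd74 stood at 106, 166, 337, 129 and 155 TPM in the 5 sham animals and at 108, 103, 310, 28.8 and 195 TPM in the 5 UNx animals. Sham animal 3 and UNx animal 3 were the highest of their groups and UNx animal 4 was the lowest of all. C1qb followed a similar order, at 15.3, 11.8, 32.1, 4.17 and 21.1 TPM in sham animals and 18.9, 12.9, 22.1, 2.86 and 27.5 TPM in UNx animals. Again UNx animal 4 was the lowest UNx animal for each of the 10 genes. The changes of Cd74 and C1qb were -0.36 and -0.021, with standard errors of 0.58 and 0.58. The median change of the 10 genes was -0.085, beside -0.29 over all genes tested. With median-ratio scaling Cd74 and C1qb stood at 0.029 and 0.35. Relative to the median of all genes, 8 of the 10 were higher and 2 were lower, against 3 and 7 on the scale as deposited.

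The largest positive differences in PT-S1 at 72 h were those of Cd52 and Tyrobp. Cd52 stood at 3.50, 8.33, 8.37, 1.65 and 7.75 TPM in sham animals and at 35.5, 26.2, 6.41, 1.05 and 7.37 TPM in UNx animals. UNx animals 1 and 2 were above every sham animal and the other 3 were within or below the sham range. The change was 0.58 with a standard error of 0.62 and an adjusted p of 0.539 (limma). Tyrobp stood at 20.9 and 16.6 TPM in the same 2 UNx animals, at 9.28, 2.00 and 8.51 TPM in the others, and at 2.66 to 17.2 TPM in sham animals. Its change was 0.32 with a standard error of 0.51.

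Each of those 2 high animals owed its level to 1 library. Library 2 of UNx animal 1 held 61.7 TPM of Cd52 and 30.8 TPM of Tyrobp, while library 1 of that mouse held 9.29 and 10.9 TPM. In UNx animal 2, library 2 held 46.9 and 28.4 TPM and library 1 held 5.40 and 4.67 TPM. These are the 2 low-correlation libraries of the table, with median correlations of 0.825 and 0.844 and 9247 and 9632 genes at 1 TPM or more. Without them the change was 0.024 for Cd52 and -0.064 for Tyrobp. Leaving out a single animal moved Cd52 to 0.18 when UNx animal 1 was dropped and to 1.15 when UNx animal 4 was, and the adjusted p (limma) ranged from 0.176 to 0.986 over all alternatives.

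Other values moved with those 2 libraries. In library 2 of UNx animals 1 and 2, genes with transcripts over 4000 bases deviated from the table's median library by a median of -1.51 and -1.41 log2 units, and genes with transcripts under 1000 bases by -0.52 and -0.36. Over the other 22 libraries of that table the same medians lay between -0.47 and 0.33 for long and between -0.057 and 0.18 for short transcripts. Cd52 and Tyrobp have the shortest transcripts of the 10 genes, at a median of 514 and 580.5 bases, and Fcer1g, a short myeloid transcript of 678.5 bases, was at 29.6 and 15.0 TPM in the same libraries. H2-Ab1 and H2-Aa, also under 1000 bases at 889 and 977, were not higher there. H2-Ab1 was at 47.5 and 37.9 TPM, against 75.9 and 83.8 TPM in library 1 of each mouse. H2-Aa was at 34.5 and 29.7 TPM, against 35.4 and 38.8 TPM. C1qb, at 11.3 and 8.80 TPM, was lower there than in library 1 of each mouse, at 26.6 and 17.0 TPM. Csf1r, the macrophage growth factor receptor, was at 0.33 and 0.31 TPM, against 5.01 and 3.47 TPM. The neutrophil transcripts S100a9 and S100a8 were at 54.1 and 26.3 TPM in library 2 of UNx animal 2 and at 0 in that of UNx animal 1. The part of transcript length or of neutrophil RNA in these levels was not tested.

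**Figure D2:**
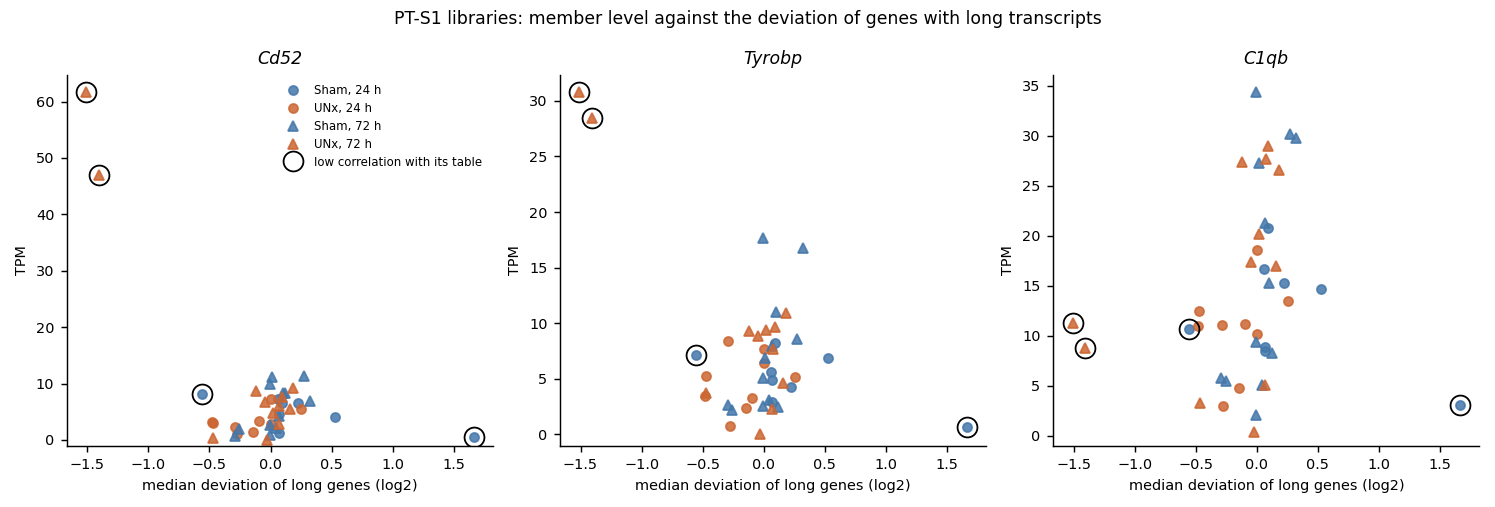
Cd52, Tyrobp and C1qb in each PT-S1 library, in TPM, against the library's median deviation of genes with transcripts over 4000 bases, in log2 units. Colours give sham or UNx, circles and triangles 24 h and 72 h, and rings the low-correlation libraries. The 2 ringed UNx libraries at 72 h hold 61.7 and 46.9 TPM of Cd52, while their C1qb is at 11.3 and 8.80 TPM.

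In CCD the class II genes were close between sham and UNx animals. At 24 h Cd74 stood at 288, 141, 241 and 188 TPM in the 4 sham animals and at 259, 154 and 263 TPM in the 3 UNx animals, a change of 0.054 with a standard error of 0.27. H2-Ab1 stood at 142, 76.1, 98.0 and 83.1 TPM in sham and at 144, 72.9 and 131 TPM in UNx animals, a change of 0.17 with a standard error of 0.28. The UNx range of Cd74 lay within the sham range, and that of H2-Ab1 extended slightly past the sham range at both ends. C1qb, at 34.4, 20.6, 27.0 and 17.2 TPM in sham and 35.7, 13.3 and 28.9 TPM in UNx animals, had a change of -0.092 with a standard error of 0.31. The lowest change was that of Lyz2, at -0.52 with a standard error of 0.38 and an adjusted p of 0.552 (limma). Its 2 lowest UNx animals held 3.75 and 3.55 TPM, below the sham range of 5.13 to 12.3 TPM, and the third held 10.7 TPM.

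At 72 h in CCD, Cd74 stood at 145, 302, 99.2 and 188 TPM in sham animals and at 246, 317, 139 and 217 TPM in UNx animals. Its change was 0.36 with a standard error of 0.33. C1qb stood at 17.4, 45.5, 9.11 and 20.1 TPM in sham and at 35.4, 31.2, 16.4 and 25.7 TPM in UNx animals, a change of 0.42 with a standard error of 0.41. In both genes the highest and lowest sham animals enclosed or nearly enclosed the UNx animals. Cd52, at 5.48, 21.7, 6.54 and 9.25 TPM in sham and 17.7, 18.0, 8.29 and 15.1 TPM in UNx animals, had the highest change, 0.60 with a standard error of 0.39 and an adjusted p of 0.845 (limma). H2-Aa, H2-Ab1 and H2-Eb1 had changes of 0.034, -0.060 and -0.047, with standard errors from 0.19 to 0.24. The median change of the 10 genes was 0.22, beside 0.010 over all genes tested, and at 24 h it was 0.020 beside -0.038.

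**Figure D3:**
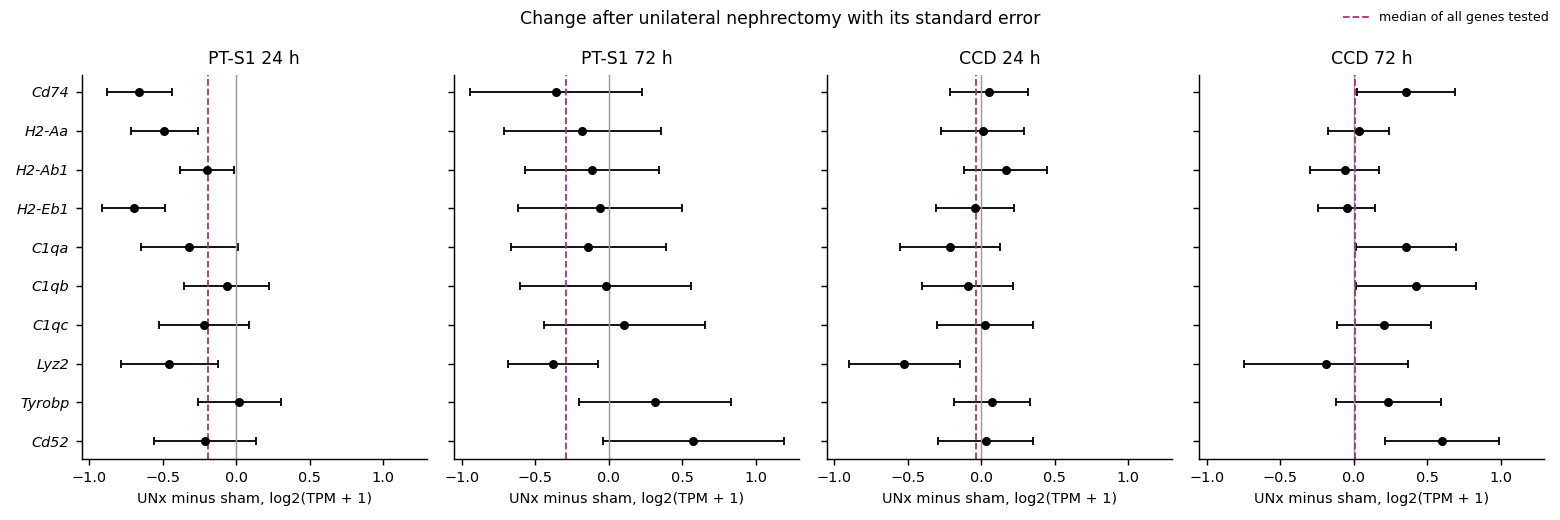
Change of each gene after nephrectomy, UNx minus sham in log2(TPM + 1), in the 4 tables. Points are limma estimates, bars their standard errors, and the dashed line the median of all genes tested. Except for Lyz2, whose bar is widest in CCD at 72 h, bars are widest in PT-S1 at 72 h. The lowest points are Cd74 at -0.66 and H2-Eb1 at -0.70 in PT-S1 at 24 h.

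Whether the effect of UNx differed between times or segments was tested as a difference of 2 effects. In these 4 tests limma called 0 of the 10 genes, with 0 also at an unadjusted p under 0.05. Of all genes, 3.33% were under that unadjusted value between the times in PT-S1 and 4.96% between the times in CCD. Between the segments it was 15.4% at 24 h and 9.33% at 72 h. Of all genes, 0% of 11455 genes were called between the times in PT-S1, 0% of 13253 between the times in CCD, 0.137% of 10988 between the segments at 24 h and 0% of 11035 between the segments at 72 h. The values nearest the threshold came from the class II genes at 24 h. Cd74 had an effect of 0.054 in CCD and -0.66 in PT-S1, a difference of 0.71 with a standard error of 0.37 and an adjusted p of 0.363 (limma). For H2-Eb1 the difference was 0.66 with a standard error of 0.36 and an adjusted p of 0.392 (limma). Their unadjusted p-values were 0.0737 and 0.0898, in a test where 15.4% of all genes were under 0.05.

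Libraries of the same animal differed widely. Each of the 17 PT-S1 animals had 2 or 3 libraries, and the highest and lowest of an animal differed in Cd74 by a median of 1.53 log2 units and at most by 3.76. In CCD, over the 10 animals with more than 1 library, the median was 0.73 and the highest 1.22. For C1qb the medians were 0.80 in PT-S1 and 0.46 in CCD. The standard deviation between libraries of an animal was 1.08 for Cd74 and 1.13 for H2-Ab1 in PT-S1, against 0.50 and 0.60 in CCD. Between animal means of a group it was 0.91 and 0.69 in PT-S1 and 0.53 and 0.44 in CCD. The C1q genes varied less within an animal than between animal means. Their standard deviations within an animal were 0.65, 0.76 and 0.70 for C1qa, C1qb and C1qc in PT-S1, against 0.86, 0.93 and 0.88 between animal means. In CCD they were 0.41, 0.53 and 0.48, against 0.58, 0.64 and 0.54.

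The class II genes correlated with one another, as did the C1q genes, when each library was taken as its deviation from the group mean. The 3 C1q genes correlated with one another at r from 0.957 to 0.967 over 41 PT-S1 libraries and from 0.858 to 0.934 over 28 CCD libraries. The 4 class II genes correlated at r from 0.797 to 0.950 in PT-S1 and from 0.849 to 0.943 in CCD. Between the sets r was from 0.508 to 0.883 in PT-S1 and from 0.643 to 0.795 in CCD. Lyz2, Tyrobp and Cd52 correlated less with one another, at r from 0.466 to 0.819 in PT-S1 and from 0.465 to 0.706 in CCD. These are descriptions over libraries that share animals. H2-Eb1 stood nearer to C1q than its class II partners did in PT-S1: its r with C1qb was 0.875, against 0.516 for H2-Ab1. Its r with the 3 C1q genes, 0.857 to 0.883, was above its r of 0.797 with H2-Ab1. Its r with H2-Aa was higher, at 0.915, and its r with Cd74, 0.878, was within the C1q range. In CCD, by contrast, H2-Eb1 had the lowest r of the 4 class II genes with each C1q gene, from 0.643 to 0.691. For H2-Ab1 it was from 0.719 to 0.751 there. Without the low-correlation libraries the C1q pairs with Lyz2, Tyrobp and Cd52 had a median r of 0.856 in PT-S1, against 0.665 with them. Among Lyz2, Tyrobp and Cd52 themselves r was then from 0.638 to 0.729 in PT-S1 and from 0.476 to 0.749 in CCD.

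**Figure D4:**
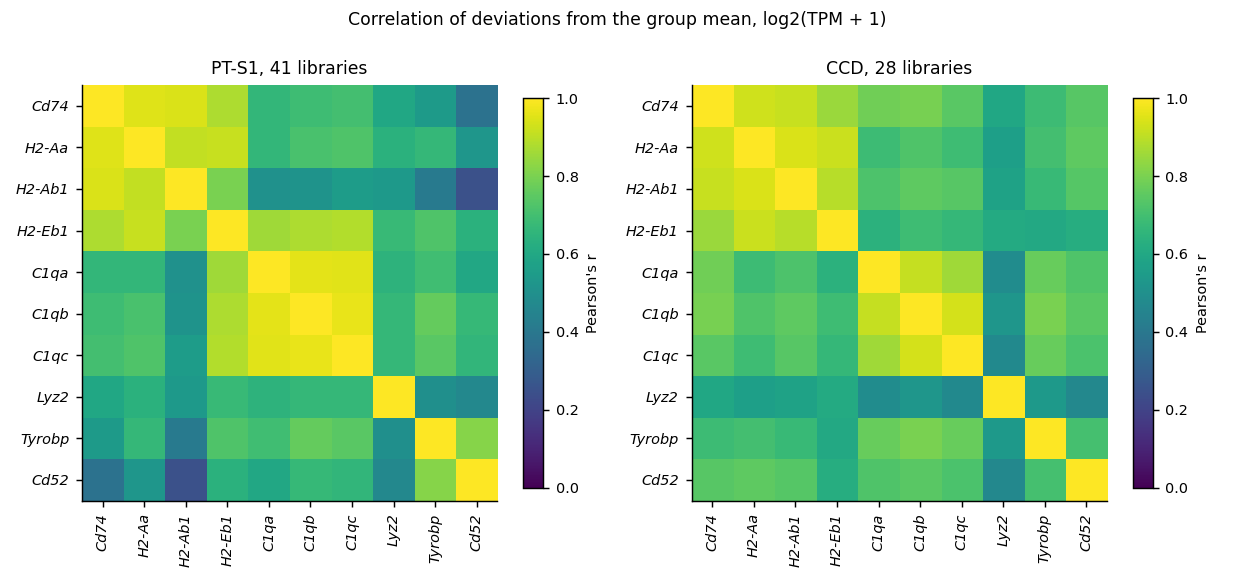
Pearson's r between the 10 genes over libraries, each taken as the deviation of log2(TPM + 1) from its group mean, for PT-S1 (41 libraries) and CCD (28 libraries). Yellow is r near 1. The class II genes and the C1q genes appear as bright blocks, Lyz2, Tyrobp and Cd52 are dimmer, and in PT-S1 the column of H2-Eb1 is brighter in the C1q rows than that of H2-Ab1.

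Over animals the sets moved together. Cd74 and H2-Aa, again as deviations from the group mean, had Pearson's r of 0.950 and Spearman's rho of 0.826 over 17 PT-S1 animals, with adjusted permutation p-values of 0.00012 and 0.00016. Over 15 CCD animals r was 0.944 and rho 0.950, with adjusted permutation p-values of 0.00012 and 0.00016. Cd74 and C1qb had r of 0.875 and rho of 0.610 in PT-S1, with adjusted permutation p-values of 0.000756 and 0.0262, and r of 0.928 and rho of 0.929 in CCD, with 0.00033 and 0.00016. C1qb and Tyrobp had r of 0.868 and rho of 0.718 in PT-S1, with adjusted permutation p-values of 0.0017 and 0.00443, and r of 0.828 and rho of 0.854 in CCD, with 0.00033 and 0.00027. The p-values are two-sided, from 100000 permutations within groups, adjusted over the 6 relations for each coefficient. Without the 2 animals farthest from the median of the first gene, r was 0.896, 0.800 and 0.673 for these 3 pairs in PT-S1 and 0.946, 0.879 and 0.721 in CCD.

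The balance of class II to C1q transcripts was narrow in CCD and had a long tail in PT-S1. The summed TPM of the 4 class II genes divided by that of the 3 C1q genes lay between 5.22 and 14.5 over the 28 CCD libraries, with a median of 9.58. In PT-S1 the median was 8.996, the quartiles were 7.81 and 13.6, and the 2 highest libraries reached 219 and 54.9.

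The library with the ratio of 219 was library 3 of sham animal 4 at 72 h. It held 328 TPM of Cd74, 260 TPM of H2-Ab1, 79.3 TPM of H2-Aa and 20.5 TPM of H2-Eb1. The other 2 libraries of that mouse held 35.8 and 23.3 TPM of Cd74. C1qb was at 2.02 TPM, C1qc at 0.50 and C1qa at 0.62, below the 5.04 and 5.45 TPM of C1qb in the other 2 libraries. Some macrophage transcripts were near 0 there. Csf1r at 0.10 TPM and Adgre1 at 0.020 were the lowest of the 41 PT-S1 libraries, and Fcgr3 was at 0. Ptprc, the pan-leukocyte CD45 gene, was at 0.010, and it was at 0 in library 2 of that mouse. The 16 macrophage markers summed to 7.94 TPM, rank 2 from the lowest of the 24 libraries of that table, with Fcer1g at 0.97. Tyrobp was at 2.59 TPM, against 3.14 and 2.24 in libraries 1 and 2 of that mouse. Lyz2 was at 1.08 TPM, against 1.04 and 6.81. The dendritic cell markers summed to 1.00 TPM, the sixth lowest of the 24 libraries of that table, with Zbtb46 at 0.91 TPM and Clec9a at 0.090 TPM. The B cell markers summed to 0.36 TPM and the T and NK cell markers to 0. Genes of antigen presentation did not all stand high there. H2-K1, a class I heavy chain, was at 471 TPM, the highest of the 41 libraries, B2m was at 875 and H2-DMb2, a chain of the peptide loader H2-DM, at 8.47 against a median of 0.35. Ctss, the cathepsin that cleaves the invariant chain, was at 0.60 TPM against a median of 4.87, and 38 libraries had more of it. Tap1 and Psmb9 were at 1.93 and 2.76 TPM against medians of 2.97 and 2.98, and Cd86, a costimulatory ligand, was at 0.

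The library with the ratio of 54.9 was library 1 of UNx animal 4 at 24 h. It held 123 TPM of Cd74 and 156 TPM of H2-Ab1 beside 22.6 TPM of H2-Aa, 15.0 TPM of H2-Eb1 and 2.92 TPM of C1qb. Csf1r was at 0.36 TPM, Ptprc at 0.24 and Itgax at 0, and the summed level of the 16 macrophage markers, 7.44 TPM, was the lowest of the 17 libraries of that table. H2-DMb1 was at 74.9 TPM, the highest of the 41 PT-S1 libraries, and H2-DMa at 24.0 against a median of 9.33. High class II with high C1q occurred too. The libraries of sham animal 3 at 72 h held 345 and 329 TPM of Cd74 with 34.4 and 29.7 TPM of C1qb, at ratios of 9.64 and 10.8. Library 1 of UNx animal 3 at 72 h had the highest Cd74 of all PT-S1 libraries, 537 TPM, with 487 TPM of H2-Ab1, 108 TPM of H2-Eb1 and 28.9 TPM of C1qb. Its ratio, 24.2, was above the highest of CCD. Library 1 of UNx animal 4 at 72 h, with the next highest ratio after 54.9, 29.8, had low levels of both sets, at 9.91 TPM of Cd74, 0.32 TPM of C1qb and 0 of Tyrobp and Cd52. The lowest ratios in PT-S1 were 4.88, 5.14 and 5.76. They came from library 2 of sham animal 4 at 72 h, with 23.3 TPM of Cd74 and 5.45 TPM of C1qb, from library 2 of UNx animal 1 at 24 h, with 50.4 and 10.98 TPM, and from library 1 of UNx animal 1 at 72 h, with 139.6 and 26.6 TPM. These libraries were picked after their values were seen, and which cells held the transcripts was not tested.

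**Figure D5:**
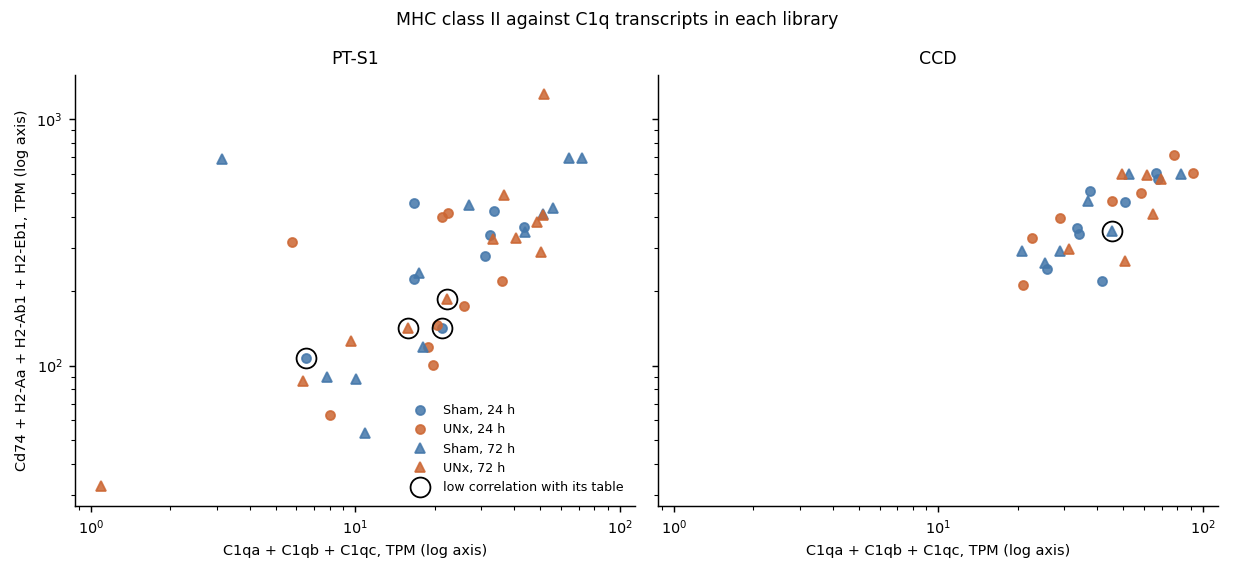
Summed TPM of the 4 class II genes against that of the 3 C1q genes in each library, on log axes, for PT-S1 and CCD. Colours give sham or UNx, circles and triangles 24 h and 72 h, and rings the low-correlation libraries. CCD libraries form a narrow band between ratios of 5.22 and 14.5, and 2 PT-S1 libraries lie far above it with ratios of 219 and 54.9.

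The genes whose library-to-library pattern was most like Cd74 and C1qb are given in order of r. In PT-S1 the nearest to Cd74 were Coro1a (r of 0.742), Mgl2 (0.722), Pld4 (0.707), Ctss (0.690), Il18bp (0.668), Psmb8 (0.664), Cd72 (0.660) and Laptm5 (0.653), out of 10407 genes over 41 libraries. Nearest to C1qb were Ctss (0.937), Cd72 (0.893), Laptm5 (0.883), Cd68 (0.854), Fcgr3 (0.838), Pld4 (0.827), Fxyd5 (0.822) and Coro1a (0.813). In CCD, over 28 libraries and 11691 genes, Cd74 was nearest to Laptm5 (0.804), Plbd1 (0.760), AW112010 (0.758), Ctss (0.745), Cybb (0.734), Scimp (0.731), Spi1 (0.725) and Trf (0.720). Spi1 encodes PU.1. C1qb was nearest to Ctss (0.907), Phf11b (0.853), Fcer1g (0.771), Cybb (0.767), AW112010 (0.745), Cd72 (0.742), Trf (0.735) and Apoe (0.722) there.

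Of 16 other genes of class II presentation, 7 were tested in PT-S1 at 24 h and 9 in each other table, and 0 were called in any. Their median change was -0.028, -0.095, -0.064 and 0.087 in PT-S1 at 24 h and 72 h and in CCD at 24 h and 72 h. Ifi30, the thiol reductase that unfolds antigens, averaged 40.0 TPM in PT-S1 and 64.1 TPM in CCD, and Rfxap, a subunit of the RFX complex, 36.4 and 55.4 TPM. Ciita, the class II transactivator, stayed under 1 TPM on average in each group and reached 3.11 TPM in the PT-S1 library with the most Cd74. H2-Ea, the alpha chain that H2-Eb1 pairs with, was at 0 in 64 of 69 libraries and at most at 0.26 TPM. Mice of the C57BL/6 strain are known to lack a functional I-E alpha gene.

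The most abundant class I genes stood above Cd74. B2m, the light chain of class I molecules, averaged 563 TPM and the heavy chain H2-D1 234 TPM in PT-S1, and H2-D1 averaged 778 TPM and H2-K1 771 TPM in CCD. Other genes of class I presentation stood below it, such as the peptide transporter Tap1, whose group means were 2.24 to 3.84 TPM in PT-S1 and 16.5 to 52.1 TPM in CCD. Of the 12 genes of class I presentation, 11 were tested in each table except CCD at 72 h, where 12 were, and 0 were called. Among the presentation genes tested, mean TPM did not overlap between groups for H2-K1 and H2-T23 in CCD at 24 h and for H2-T23, Tap1 and H2-DMa in PT-S1 at 24 h, where 15% and 21.3% of all genes did not. H2-K1 in CCD stood at 819 ± 128 TPM over the 4 sham animals (SD) and 624.6 ± 40.5 TPM over the 3 UNx animals (SD), for a change of -0.39 with an adjusted p of 0.165 (limma). H2-T23, a class I-like chain, was lower in UNx animals in CCD, at 46.3 against 52.3 TPM, and higher in PT-S1, at 82.3 against 65.9 TPM. Tap1 was lower in UNx animals in PT-S1, at 2.24 against 3.84 TPM, and H2-DMa, a chain of H2-DM, was higher, at 12.6 against 9.67 TPM. On the log2 means Tap1 overlapped and the others did not. The adjusted p-values (limma) of these 4 differences were 0.355, 0.299, 0.289 and 0.303.

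Markers of other immune cells were measured from lists. The 16 macrophage markers summed to 11.4 to 55.2 TPM per animal in PT-S1 and to 36.2 to 105 TPM in CCD, and their sums overlapped between sham and UNx animals in each table. Csf1r averaged 2.10 to 3.08 TPM over the PT-S1 groups and 2.91 to 6.34 TPM over the CCD groups. Of these markers 8, 9, 11 and 12 were tested in PT-S1 at 24 h and 72 h and in CCD at 24 h and 72 h, and 0 were called. Their median change was 0.025, -0.0056, -0.038 and 0.42, each beside the all-gene medians given above. The 7 dendritic cell markers summed to at most 3.27 TPM per animal in PT-S1 and 13.4 TPM in CCD, led by Zbtb46, which other cells also express. The 6 B cell markers summed to at most 3.92 TPM per animal in PT-S1 and 7.27 TPM in CCD. Among them Ighm averaged 1.54 TPM in PT-S1 and 2.21 TPM in CCD, and Cd79a was at 0 in all 24 PT-S1 libraries at 72 h. The 9 T and NK cell markers summed to at most 1.58 TPM per animal in PT-S1 and 10.2 TPM in CCD. The neutrophil markers summed to at most 0.193, 0.27, 0.435 and 1.29 TPM per sham animal in PT-S1 at 24 h and 72 h and in CCD at 24 h and 72 h. Single UNx animals reached 14.6, 44.0, 18.3 and 3.31 TPM, while the UNx medians were 0.070, 0.29, 0.36 and 0.305 TPM, and 0 were called of the 1, 2, 1 and 0 tested. Their part in the levels of the 10 genes was not tested. Plvap, of peritubular capillary endothelium, averaged 71.5 TPM in PT-S1 and 110 TPM in CCD.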

How the data were processed

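RNA was extracted with a Zymo kit and cDNA made with the SMART-Seq V4 Ultra Low Input kit, per the labels' protocols. The authors deposited 4 tables of TPM per gene and library, one for each segment and time. The submitters' processing notes list STAR, RSEM 1.3.3 and GRCm39, and the settings are not given in the sources used here. TPM sums to 1000000 in each library, so depth is not known. Columns were tied to animals by their names: 47 of 69 matched 1 library, and 22 were known by group and animal number only. No per-sample column was left out, and no columns were identical.

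Libraries were averaged per animal on log2(TPM + 1), since libraries of an animal are not replicates. The labels do not say whether the PT-S1 and CCD animals were the same mice, and they were treated as separate. UNx and sham were compared with limma 3.58.1 (R 4.3.3, empirical Bayes with trend) over genes with a mean of at least 1 TPM over the animals of a table, with Benjamini-Hochberg adjustment over all of them and a threshold of 0.05. Animal numbers were checked as a pairing: deviations of same-numbered sham and UNx animals correlated between -0.37 and 0.33, so the numbers were not used to pair. The fits were tested on simulated data whose planted changes were larger than any change of the 10 genes. That run does not measure the power to find changes of their size. Genes set to be named were the 10 genes, the 2 most abundant of each list, any list gene called, and the 8 most like Cd74 and C1qb. Predicted genes were passed over among the most alike, and many of the abundant list genes are not named in the text. Other genes are named where a value beside them turns on them, and were chosen after their values were seen. The 10 genes and the lists were chosen with earlier results of these data known. Transcript lengths are from GENCODE vM21. Alternatives changed the pseudocount, the filter, the scaling, the averaging, the treatment of animals, and the libraries or animals included. Python 3.11.15, SciPy 1.17.1 and Matplotlib 3.10.9 were used for descriptions and figures.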

Additional observations from a re-analysis of the deposited data

Results flagged for a closer look

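In 60 groups of 4 or 5 animals (each gene in each segment, time and treatment), an animal was set apart where its gap to the nearest other animal took up more of the group's range than the 95% critical value of Dixon's test, on the mean log2 scale. Chance flags about 1 group in 20, and 3 of the 60 were flagged. In PT-S1 at 24 h, UNx animal 3 was far above the other 3 UNx animals for Lyz2, at 3.15 TPM against 1.34 to 1.43 TPM. The neutrophil transcripts S100a8 and S100a9 were at 11.99 and 13.08 TPM in library 1 of that animal and at 1.81 and 1.15 TPM in library 2, and at most at 0.18 TPM in the libraries of the other 3 UNx animals. Their part in the Lyz2 level was not tested. In PT-S1 at 72 h, UNx animal 4 was far below the other 4 UNx animals for H2-Aa, at 8.67 TPM, and for H2-Eb1, at 9.43 TPM.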

How the results depend on the processing

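The change of each of the 10 genes in each table was recomputed under 635 alternatives in all. None passed the threshold in limma (smallest adjusted p 0.0799), 547 kept the direction and 88 had the other direction. Depth is unknown, and 3 to 5 animals a group limit the precision. The causes of the values below were not tested.

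The count of all genes called moved more. With a looser filter (above 0 in at least 3 animals) it was 2 in PT-S1 at 24 h, 1 in CCD at 24 h and, at 72 h in CCD, 7. For the differences of effects it was 1 between the times in PT-S1, 43 between the segments at 24 h and 1 at 72 h. With a mean of at least 5 TPM it was 39 in CCD at 72 h and 9 between the segments at 24 h. Median-ratio scaling gave 1 in PT-S1 at 24 h. Without the low-correlation libraries it was 1 in PT-S1 at 24 h, 1 in PT-S1 at 72 h, 129 in CCD at 72 h, 187 between the times in PT-S1, 179 between the segments at 24 h and 9 at 72 h. With the animal as a random effect over libraries it was 100 in PT-S1 at 24 h, 10 in PT-S1 at 72 h and 485 in CCD at 24 h. The numbers were not used to pair the animals, since same-numbered deviations correlated between -0.37 and 0.33. With so few animals a group, these correlations cannot exclude a pairing. With the number as a replicate block the count was 81 in PT-S1 at 24 h, 0 in CCD at 24 h and 3 in CCD at 72 h. Leaving out each animal in turn gave 0 to 8 in PT-S1 at 24 h, 7 to 78 in CCD at 24 h, 8 to 73 in CCD after 72 h, 0 to 1 between the times in CCD, 0 to 163 between the segments at 24 h and 0 to 1 at 72 h.

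Changes of single genes with the other direction were as follows. With median-ratio scaling they were 0.035 for H2-Ab1 and 0.14 for C1qb in PT-S1 at 24 h, and 0.011 for H2-Eb1 in CCD at 24 h. In PT-S1 at 72 h they were 0.029 for Cd74, 0.21 for H2-Aa, 0.27 for H2-Ab1, 0.32 for H2-Eb1, 0.19 for C1qa and 0.35 for C1qb. Without the low-correlation libraries they were -0.18 for Tyrobp in PT-S1 at 24 h and 0.030 for H2-Eb1 in CCD at 72 h. In PT-S1 at 72 h they were 0.068 for H2-Ab1, 0.060 for H2-Eb1, 0.094 for C1qa, 0.18 for C1qb and -0.064 for Tyrobp. With the log2 of the mean TPM per animal they were -0.011 for Tyrobp in PT-S1 at 24 h and 0.0025 for C1qb in CCD at 24 h. With the animal as a random effect they were -0.081 for Tyrobp in PT-S1 at 24 h, 0.0051 for H2-Eb1 in CCD at 24 h and 0.033 for H2-Ab1 in CCD at 72 h. With the replicate block they were 0.18 for C1qb and 0.034 for C1qc in PT-S1 at 24 h, and -0.0060 for Cd74, -0.046 for H2-Aa, -0.11 for C1qc, -0.053 for Tyrobp and -0.13 for Cd52 in CCD at 24 h.

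Leaving out each animal in turn gave changes on both sides of 0 for some genes. In PT-S1 at 24 h these ran from -0.26 to 0.18 for C1qb, -0.42 to 0.034 for C1qc, -0.48 to 0.067 for Cd52 and -0.12 to 0.26 for Tyrobp. In PT-S1 at 72 h they ran from -0.70 to 0.16 for Cd74, -0.43 to 0.33 for H2-Aa, -0.46 to 0.18 for H2-Ab1, -0.43 to 0.41 for H2-Eb1, -0.51 to 0.25 for C1qa, -0.40 to 0.50 for C1qb and -0.31 to 0.54 for C1qc. In CCD at 24 h they ran from -0.13 to 0.32 for Cd74, -0.20 to 0.25 for H2-Aa, -0.042 to 0.49 for H2-Ab1, -0.20 to 0.18 for H2-Eb1, -0.44 to 0.090 for C1qa, -0.37 to 0.27 for C1qb, -0.31 to 0.42 for C1qc, -0.095 to 0.29 for Tyrobp and -0.20 to 0.27 for Cd52. In CCD at 72 h they ran from -0.10 to 0.21 for H2-Aa, -0.19 to 0.14 for H2-Ab1, -0.20 to 0.064 for H2-Eb1 and -0.82 to 0.16 for Lyz2.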
